A study of Rattus norvegicus with 34 samples.

Results

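The sperm DNA methylation landscape of control rats was described from the 6 F1 control pools, which are 6 of the 34 samples in the labels, over all 1 kb windows of chromosomes 1 to 20. These autosomal windows number 2618741 of 2782040 windows in the deposited table, and no window was selected by its signal. The animals were outbred Hsd Sprague Dawley rats. The F1 control males were not injected themselves. Their sires, 3 F0 control males, had received phosphate-buffered saline at 1.1 mL/kg on days 26, 29 and 32 of age, and the labels count 25 F1 control males. Mature sperm were collected from the cauda epididymis, and somatic cells were removed by sonication and washing. DNA of 3 to 4 males was pooled before the pull-down and each pool gave 1 library. F1 animals were bred at 80 to 90 days, and the labels give no age at sperm collection. The labels do not say which males or sires entered which pool, so pools can share a sire. The p-values below rest only on spread between these 6 pools, which limma shares across chromosomes or bins. No group was compared with another.

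MeDIP-seq enriches single-stranded DNA fragments with an antibody to 5-methylcytosine and sequences them. Signal in a window depends on how many of its cytosines are methylated, and also on how many methylatable CpG sites it holds, on its copy number in the genome and on whether reads can be placed there. In mammalian sperm most CpG sites are methylated, with the main exception of CpG-dense promoters, and the pattern is laid down in the male germ line before mature sperm form. Most histones of the sperm nucleus are replaced by protamines. Sperm identity could not be checked against marker genes, since the files hold DNA counts by coordinates of the Rnor_6.0 build and no annotation of that build was used here.

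Autosomal windows held 22644299 to 33057657 counts per pool, which was 97.0% to 97.2% of all counts. Values in CPM (counts scaled to a library total of 1000000) below are scaled to these autosomal totals, so every pool has the same mean of 0.382 CPM per window. On average each read contributed to 1.16 to 1.22 windows. Since reads carry no molecular identifiers, intervals and detection limits cover counting error only.

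The pull-down gave reads over nearly the whole autosomal genome, at an uneven level. No library without the antibody was used here, so the counts do not separate methylated fragments from unspecific pull-down. Of all windows, 77.2% held a count in every pool, 8.84% in 5 of the 6 pools and 4.91% in none. The median window had 6 counts in pool 1, 7 in pool 2, 6 in pool 3, 5 in pool 4, 7 in pool 5 and 6 in pool 6. On the mean over pools the median window had 0.233 CPM, the lowest 5% of windows had at most 0.00504 CPM and the highest 5% at least 1.19 CPM. The upper tail was long, with 1% of windows above 2.16 CPM, 0.1% above 4.52 CPM and 605 CPM in the highest window. The mean window was 1.64 times the median window.

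A minority of windows carried most of the signal. Ranked by mean CPM, 15.4% of windows held 50% of the signal, and the lower 50% of windows held 13.5% of it. Windows above 10 CPM were 776 in number, 0.0296% of the total, and held 2.5% of the signal. Between 0.5 and 2 times the median lay 45.1% of windows. The highest 10% of windows, ranked each time by the other 5 pools, took a share of counts of 38.2% in pool 1, 38.6% in pool 2, 39.1% in pool 3, 38.3% in pool 4, 39.6% in pool 5 and 39.2% in pool 6. The mean was 38.8% (n = 6), and the pools covered a range of 38.2% to 39.6%. The Wilson 95% interval of pool 1 was 38.20% to 38.24%, so that counting error was small beside the differences between pools. The highest 1% of windows held 9.56% to 10.3% of a pool's counts.

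**Figure D1:**
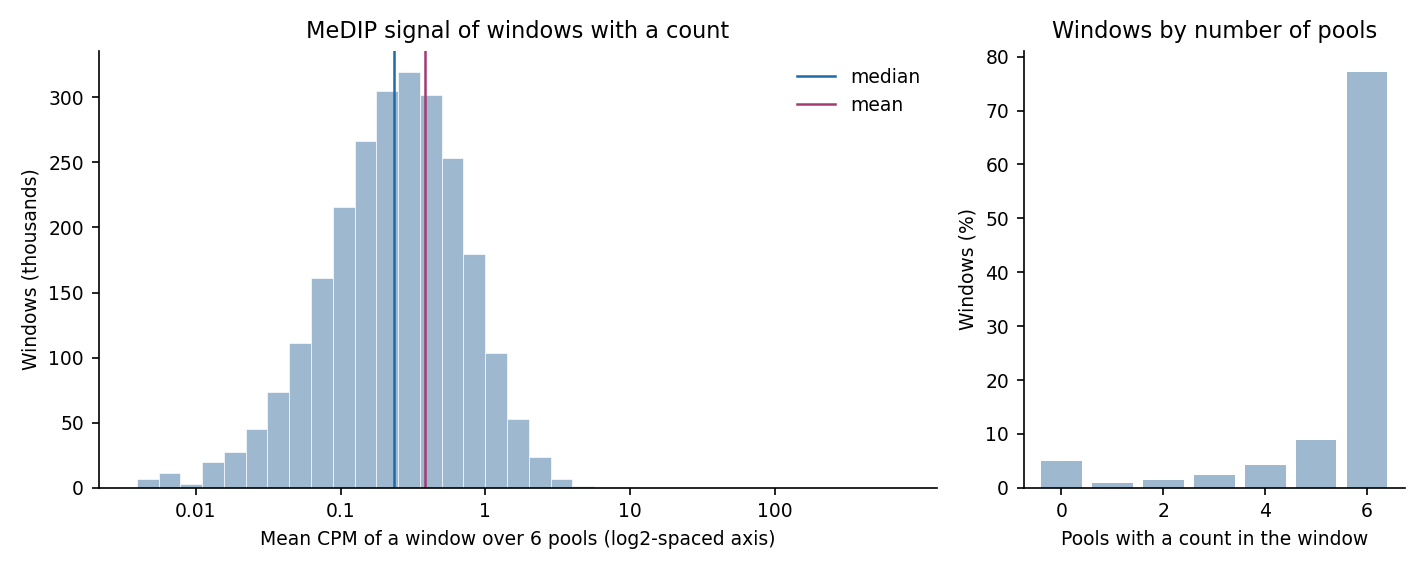
Distribution of MeDIP signal over the autosomal 1 kb windows with a count, as a histogram of the mean CPM over the 6 F1 control pools on a log2 axis. Vertical lines mark the median of 0.233 CPM and the mean of 0.382 CPM, and a long tail reaches to high signal. A second panel gives the share of windows by the number of pools with a count.

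Windows at 0 counts were 11.2% of windows in pool 1, 9.47% in pool 2, 9.88% in pool 3, 12.4% in pool 4, 9.52% in pool 5 and 11.8% in pool 6. The lowest shares belonged to the deepest libraries, pools 2 and 5, and to pool 3. When each library was thinned to 22644299 counts, the shares became 12.0%, 12.2%, 10.8%, 12.4%, 12.5% and 12.7% in the same order, and pool 3 had the lowest share. At a single window the limit that a count of 0 allows is 3 counts, which is 0.0908 to 0.132 CPM in 1 pool and 0.0184 CPM over all 6 pools. A window at 0 is one where no read was counted. Absence of methylated DNA and absence of placeable reads cannot be told apart there.

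Neighbouring windows resembled each other, mostly over a few kilobases, with a weak remainder that reached over megabases. The likeness was taken as Pearson's r of log2(CPM + 0.1) between a window in 1 pool and a window at a given distance in another pool. All 30 ordered pairs of pools were used, so that no single read counted in adjacent windows entered both values. Reads across a window edge occur in every pool, and their part in r at 1 kb was not tested. The same window correlated between pools at 0.884 on average (0.868 to 0.906). At 1 kb the mean r was 0.50, with pairs from 0.480 to 0.516, and within the same pool it was 0.517. It was 0.327 at 2 kb, 0.214 at 5 kb, 0.170 at 10 kb and 0.107 at 100 kb. At 1000 kb it was still 0.0623, and at 10000 kb 0.0118. These correlations run over windows of shared libraries, which are not independent replicates, and are given as a description.

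**Figure D2:**
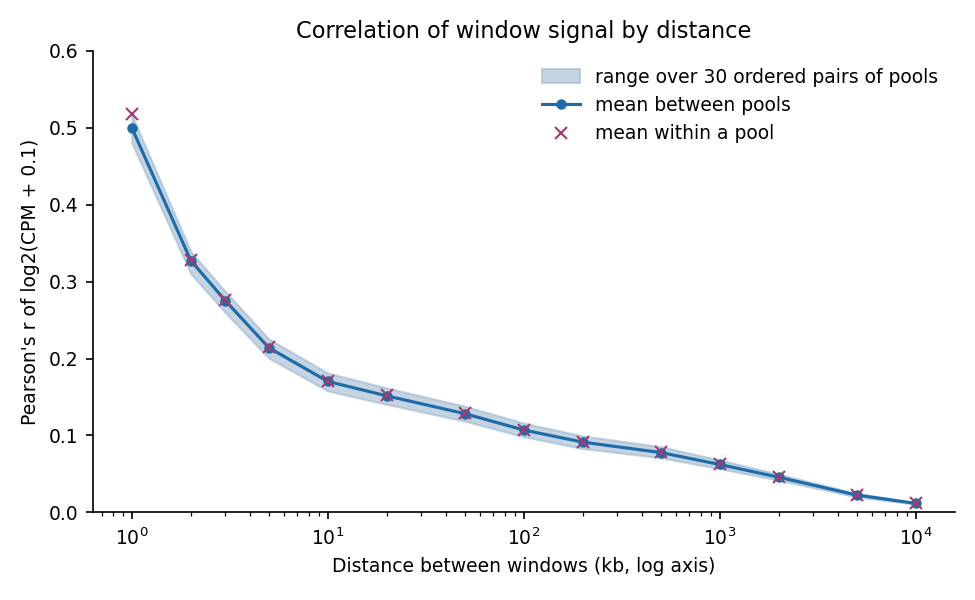
Pearson's r of log2(CPM + 0.1) between windows of different F1 control pools by distance in kb on a log axis, with the mean and the range over pairs of pools. The correlation falls from 0.50 at 1 kb to 0.170 at 10 kb and 0.0623 at 1000 kb.

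Relative to its size, r varied less between chromosomes at short range than at long range. At 1 kb, r lay between 0.448 on chromosome 10 and 0.523 on chromosome 12. At 10 kb it lay between 0.135 on chromosome 11 and 0.217 on chromosome 12. At 1000 kb it was lowest on chromosome 10 (0.0365) and highest on chromosome 13 (0.0853), followed by chromosomes 5, 7 and 20 with 0.0842, 0.0821 and 0.0804.

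The covariance of the log2 signal between pools, which leaves out noise that is private to a pool, was divided among nested scales. Single 1 kb windows within their 10 kb block held 59.6% of the shared variance. Blocks of 10 kb within 100 kb held 21.7%, blocks of 100 kb within 1 Mb 7.93%, and 1 Mb bins within a chromosome 10.1%. Differences between chromosomes held 0.638%. The shared part made up 88.4% of the variance of a pool over windows. Most of the reproducible structure was therefore finer than 10 kb. The part of 1 Mb bins was larger than that of 100 kb blocks, but it takes in every scale from 1 Mb up to a whole chromosome.

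Chromosome 12 carried the most signal per window and chromosome 2 the least. The relative signal of a chromosome is given as log2 of its mean CPM per window over the mean of all autosomal windows. On chromosome 12 it was 0.41, 0.43, 0.40, 0.36, 0.38 and 0.36 in pools 1 to 6, a mean of 0.39 (SD 0.029, n = 6), or 1.31-fold, at 0.50 CPM per window (adjusted p = 2.53e-09 by limma's 1-sample test). The values of chromosome 19 were 0.28, 0.28, 0.28, 0.27, 0.28 and 0.25, a mean of 0.27 (SD 0.011) or 1.21-fold. Those of chromosome 20 were 0.26, 0.26, 0.26, 0.23, 0.25 and 0.22, a mean of 0.25 (SD 0.019) or 1.19-fold. All pools of these chromosomes lay above the autosomal mean, and no pool of chromosome 12 overlapped with any pool of the other two.

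Chromosome 10 followed with 0.14 (SD 0.015) or 1.10-fold, and chromosome 1 with 0.11 (SD 0.0060) or 1.08-fold. At the other end, chromosome 2 had -0.17, -0.17, -0.17, -0.16, -0.15 and -0.15 in pools 1 to 6, a mean of -0.16 (SD 0.010) or 0.894-fold, at 0.341 CPM per window (adjusted p = 1.95e-09 by limma). Chromosome 11 had -0.10 (SD 0.0092), chromosome 4 had -0.087, chromosome 15 had -0.082, chromosome 6 had -0.074, chromosome 3 had -0.062, chromosome 5 had -0.052 and chromosome 18 had -0.042. Every pool lay below the autosomal mean on each of these 8 chromosomes. The remaining 7 chromosomes stayed within 0.032 of the mean on either side, from 0.032 on chromosome 17 to -0.013 on chromosome 8.

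With limma's 1-sample test and Benjamini-Hochberg adjustment, 19 of 20 chromosomes (95%) differed from the autosomal mean, 8 higher and 11 lower. The exception was chromosome 9, at -0.0040 with adjusted p = 0.151. With such small spread between pools most chromosomes pass whatever their size of difference, so the order and the size say more than the count. Ordered by mean signal the chromosomes ran 12, 19, 20, 10, 1, 17, 14, 7, 9, 16, 13, 8, 18, 5, 3, 6, 15, 4, 11 and 2. Of the 19 pairs next to each other, 12 (63.2%) stood in the same order in all 6 pools, with adjusted p = 0.0495 in an exact two-sided sign-flip permutation test, where 6 pools allow no p below 0.03125 before adjustment. The pairs 14 and 7, 9 and 16, 16 and 13, 13 and 8, 18 and 5, 6 and 15, and 15 and 4 did not differ beyond their spread. For 18 and 5 the order held in 5 of 6 pools, at adjusted p = 0.0913 in the same exact test.

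**Figure D3:**
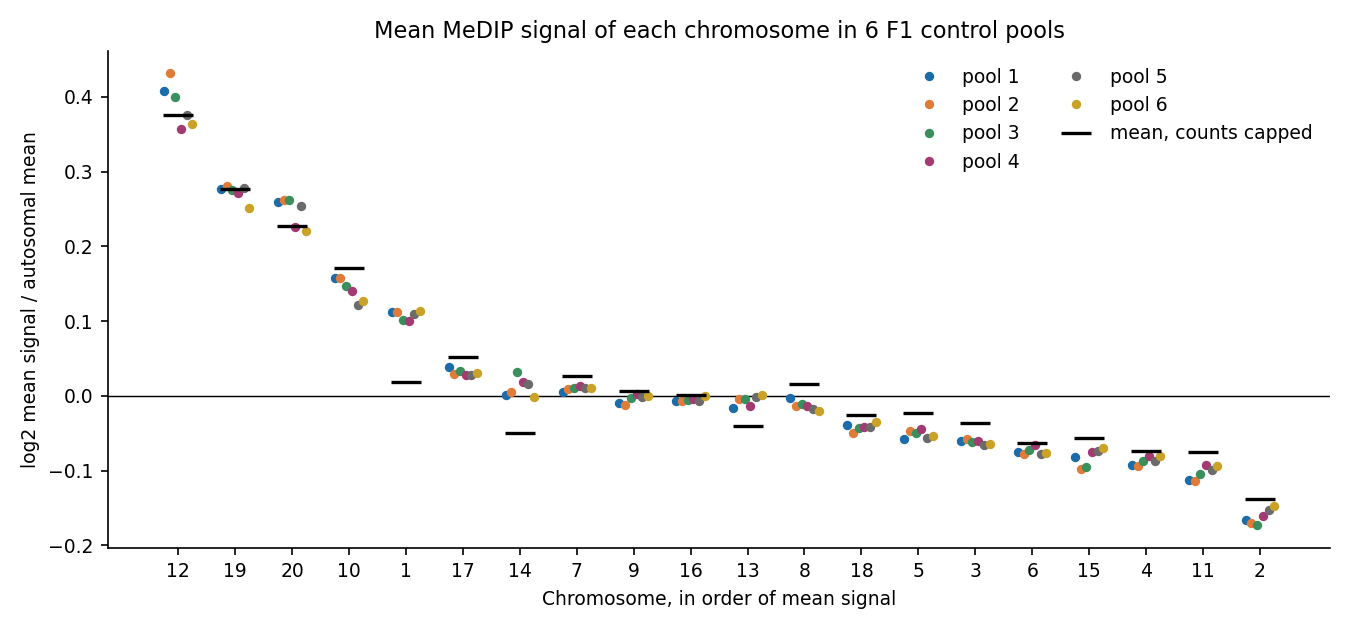
Log2 signal of each autosome relative to the mean over all autosomal windows, with 1 point per F1 control pool. A dash marks the mean over pools after capping the highest windows, and chromosomes are ordered by their uncapped mean. Chromosome 12 is highest at 0.39 and chromosome 2 lowest at -0.16, and the capped value of chromosome 1 drops to 0.019.

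The rank of chromosomes 1 and 14 rested on a few windows of very high signal. When each library's counts were capped at the level that 0.1% of its windows exceed, chromosome 1 went from 0.11 to 0.019 and chromosome 14 from 0.012 to -0.050. Leaving out the 10 highest 1 Mb bins, an alternative chosen after seeing the data, gave 0.017 for chromosome 1 and -0.061 for chromosome 14, which then lay below the mean in all 6 pools. Chromosome 13 likewise went from -0.0064 to -0.041 after capping and stood at -0.076 by the median window. Without those bins it had -0.052 and also lay below the mean in all 6 pools. Chromosomes 12, 19, 20 and 10 kept 0.38, 0.28, 0.23 and 0.17 after capping, and by the median window they stood at 0.56, 0.36, 0.29 and 0.33. Chromosome 2 stayed lowest, at -0.14 capped and -0.20 by the median. The calls of chromosomes 13 and 14 (limma, adjusted p = 0.0491 and 0.0340) also failed the exact sign-flip permutation test, and those of chromosomes 13, 14 and 16 were lost when single pools were left out.

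A high mean did not go with fewer empty windows in every case. Windows empty in all pools were 3.02% of chromosome 10, the lowest share, and 5.91% of chromosome 12, the highest. Chromosome 2, with the lowest signal, had 5.81%. The median window ranged from 0.202 CPM on chromosome 2 to 0.343 CPM on chromosome 12.

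Within chromosomes the signal varied over megabases by far more than between pools. Of 2629 bins of 1 Mb, 2618 had enough windows and counts to be tested. Between the 5th and the 95th percentile the bins ran from -0.80 to 0.60 on the log2 relative scale, a 2.64-fold range, with a median of -0.067. The SD between bins was 0.46, while the median SD over the 6 pools of a bin was 0.030. Most bins nonetheless lay near the mean, with 80.0% within 1.5-fold of it, 17 bins more than 2-fold above and 42 more than 2-fold below.

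By limma's 1-sample test with adjustment over all bins, 1122 bins (42.9%) were higher and 1394 (53.2%) lower than the autosomal mean, 96.1% in all. Past 1.5-fold, 144 bins (5.5%) were higher and 379 (14.5%) lower. The surplus of lower bins depended on the reference level and the pseudocount. Against the median bin instead of the mean, 214 bins were higher past 1.5-fold and 271 lower. A pseudocount of 1 count per window, which adds to every bin and not to the reference, gave 260 higher and 117 lower past 1.5-fold, and 1406 higher and 1090 lower among all called bins.

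The highest bin lay on chromosome 1 at 180000001 to 181000000. Its relative signal was 4.25, 4.22, 4.08, 3.96, 4.24 and 4.21 in pools 1 to 6, a mean of 4.16 (SD 0.12) or 17.9-fold, at 6.84 ± 0.530 CPM per window (SD, n = 6; adjusted p = 1.08e-07 by limma). It alone held 0.684% of the autosomal signal and 5.88% of that of chromosome 1. Its median window had 0.184 CPM, below the autosomal median, 32.9% of its windows were empty in all pools, and after capping its value was 1.01. The high mean of this bin thus came from a minority of its windows.

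The bin on chromosome 14 at 46000001 to 47000000 was 8.37-fold above the mean and varied more between pools, with 2.94, 3.01, 3.40, 3.21, 3.07 and 2.76. Pool 3 was highest there and pool 6 lowest. On chromosome 13 at 33000001 to 34000000 the mean was 6.30-fold, and 21.4% of the bin's signal fell in a single window. The other 7 of the 10 highest bins lay between 2.36-fold and 3.39-fold. Chromosome 1 held 3 of them, starting at 55000001, 11000001 and 181000001, and chromosome 16 held a neighbouring pair, starting at 21000001 and 22000001. The bin at 27000001 lay on chromosome 20 and the bin at 12000001 on chromosome 9.

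Capping the highest windows kept all 10 above the mean. The value of the chromosome 20 bin went from 1.54 to 0.030, with 12.6% of its signal in 1 window, while the chromosome 16 bin at 21000001 went only from 1.29 to 1.07. The 10 bins together held 2.00% of the autosomal signal in 0.382% of the windows.

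The lowest bin lay on chromosome 7 at 4000001 to 5000000. Its relative signal was -2.30, -2.23, -2.25, -2.24, -2.23 and -2.29 in pools 1 to 6, a mean of -2.26 (SD 0.030) at 0.0799 CPM per window (adjusted p = 9.95e-14 by limma). Empty windows made up 53.1% of it, and without them the value was -1.24. The bins starting at 103000001 and 102000001 on chromosome 4 had -2.09 and -1.71, with 28.9% and 21.9% of windows empty. The bin at 8000001 on chromosome 7 had -1.92. Of the other 6 lowest bins, that at the start of chromosome 13 had -1.59. Those at 118000001 and 122000001 on chromosome 1 had -1.58 and -1.43. The bin of chromosome 2 starting at 87000001 had -1.44, and the bins at 6000001 on chromosome 7 and at 42000001 on chromosome 8 both had -1.42. All 10 stayed below the mean when empty windows were left out, at -0.998 to -1.67, so that their remaining windows were low as well. Over all 2618 bins, relative signal and share of empty windows had r = -0.331 as a description over bins of shared libraries.

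High and low bins lay side by side in runs. Adjacent bins had r = 0.588 between different pools (0.574 to 0.601 over pairs, 2598 pairs of bins). Consecutive called bins with all 6 pools on the same side of the mean formed 343 runs of higher and 359 runs of lower bins. The median length was 2 bins on each side. The longest higher run spanned 26 bins on chromosome 5 at 136000001 to 162000000, with a mean of 0.47 and every bin between 0.11 and 0.87. The next were 18 bins on chromosome 10 from 81000001, 17 on chromosome 13 from 95000001, and 16 each on chromosome 12 from 36000001 and on chromosome 6 from 122000001. The longest lower run was the first 25 bins of chromosome 13, with a mean of -0.65, followed by 21 bins on chromosome 5 from 26000001, 20 on chromosome 7 from 78000001, and 19 each on chromosome 2 from 164000001 and on chromosome 6 from 53000001. Chromosomes 5, 6 and 13 thus each held a long run of either kind.

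Of the chromosomes with high signal, 12, 19 and 10 were high over most of their length, chromosome 20 less so and chromosome 1 not. On chromosome 12, 44 of 53 bins (83.0%) were called higher, against 42.9% over all bins, and its median bin stood at 0.42. Chromosome 19 had 69.4% of its bins called higher, chromosome 10 had 61.9% and chromosome 20 had 57.1%. On chromosome 20, 23 of 56 bins were called lower. Chromosome 1 had 46.6% of its bins called higher, and its median bin stood at -0.0089. The lowest shares were 29.3% for chromosome 2 and 31.1% for chromosome 11. The spread between bins was smallest on chromosome 10 (SD 0.34) and largest on chromosomes 13 and 7 (SD 0.54 each). Between the 5th and the 95th percentile of bins, chromosome 7 had the widest range, 2.95-fold, against 2.72-fold on chromosome 13.

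Signal was low in the last 2 Mb of chromosomes and rose to a peak a few megabases further inside. In the last 2 Mb of the chromosomes the log2 ratio to the remaining windows was -0.30, -0.28, -0.28, -0.24, -0.30 and -0.25 in pools 1 to 6, a mean of -0.28 (SD 0.024) or 0.826-fold. In the first 2 Mb it was -0.094, -0.079, -0.076, -0.075, -0.064 and -0.083, a mean of -0.078 (SD 0.0098). All 6 pools were below 0 at either end, with adjusted p = 0.03125 for each in an exact two-sided sign-flip permutation test, the smallest value 6 pools allow. Of the 20 chromosomes, 3 were above their own mean in the last 2 Mb (5, 12 and 17) and 6 in the first 2 Mb (2, 3, 6, 7, 12 and 16). The deficit at the start depended on the measure. Set against each chromosome's own mean, the median over chromosomes in the first 2 Mb was -0.31, and capping the highest windows gave -0.13 for the pooled ratio, while leaving out empty windows turned it to 0.025. For the last 2 Mb that median was -0.43.

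The course from the last base inwards was regular. Averaged over the 20 chromosomes, the relative signal was -0.42 in the last megabase, -0.14 in the next, 0.074 between 2 and 3 Mb, 0.40 between 5 and 6 Mb and 0.47 between 6 and 7 Mb, its highest value. It was 0.23 between 9 and 10 Mb and 0.073 between 19 and 20 Mb. Because the high zone starts so close, the last 5 Mb together gave 0.0012. From the first base the course was flatter, at -0.012 in the first megabase, -0.14 in the next, and 0.27 at its highest, between 11 and 12 Mb. The first megabase also had the most empty windows, 13.9%, against 8.23% in the last.

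**Figure D4:**
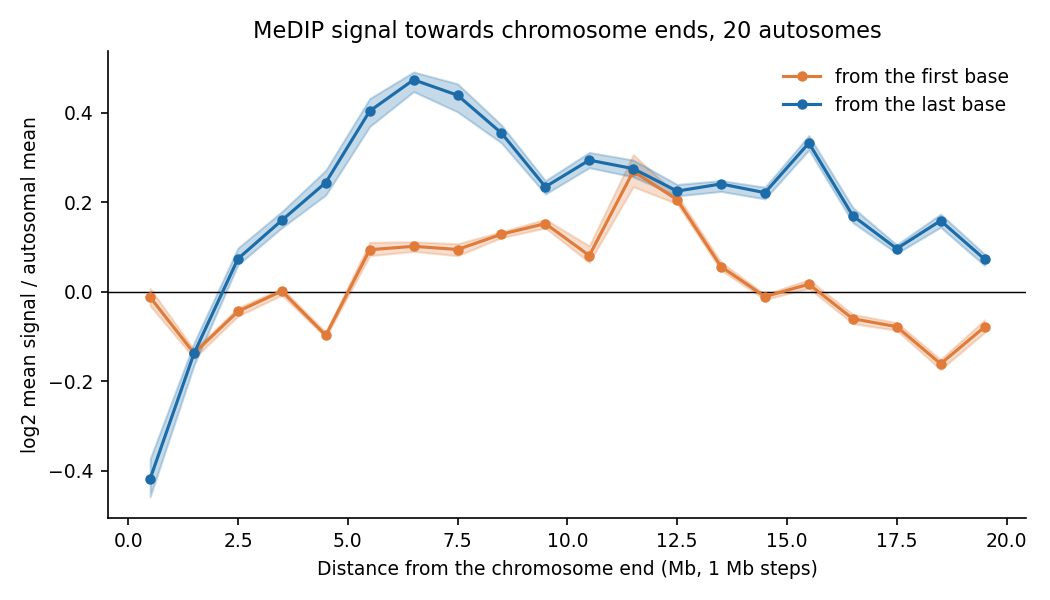
Mean log2 relative signal in 1 Mb steps from the first and from the last base of the 20 autosomes, with the range over the 6 F1 control pools. Counted from the last base the line starts at -0.42, lies above 0 from the step of 2 to 3 Mb on and peaks at 0.47 between 6 and 7 Mb, while from the first base it stays between -0.16 and 0.27.

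Windows without a count in any pool, 128494 in all, lay scattered and in stretches. They formed 32743 runs, of which 12383 were single windows. Runs of at least 10 windows, termed empty stretches here, numbered 1999 and covered 41453 kb, which is 1.58% of autosomal windows and 32.3% of the empty ones. Their median length was 13 kb. In a single pool alone there were 2525 to 2791 such runs over 48914 to 52970 kb, so most of the length was empty in every pool.

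The lengths of empty stretches were not spread smoothly. The number of runs fell from 441 at 10 kb to 32 at 21 kb, with small rises at 17 and 20 kb on the way, then rose to 79 at 22 kb and 95 at 23 kb, and fell to 16 at 24 kb. The runs of 22 or 23 kb lay on all 20 chromosomes. At the long end, 30 runs were 148 to 153 kb long, on 18 of the 20 chromosomes, and 18 of them were exactly 149 kb. Only 2 runs were 140 to 147 kb long, and none exceeded 153 kb. Chromosomes 7 and 9 had no run of 148 kb or more, and their longest were 133 kb and 125 kb. These length classes were chosen after their values were seen. Whether these lengths follow gaps in the Rnor_6.0 assembly was not tested.

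**Figure D5:**
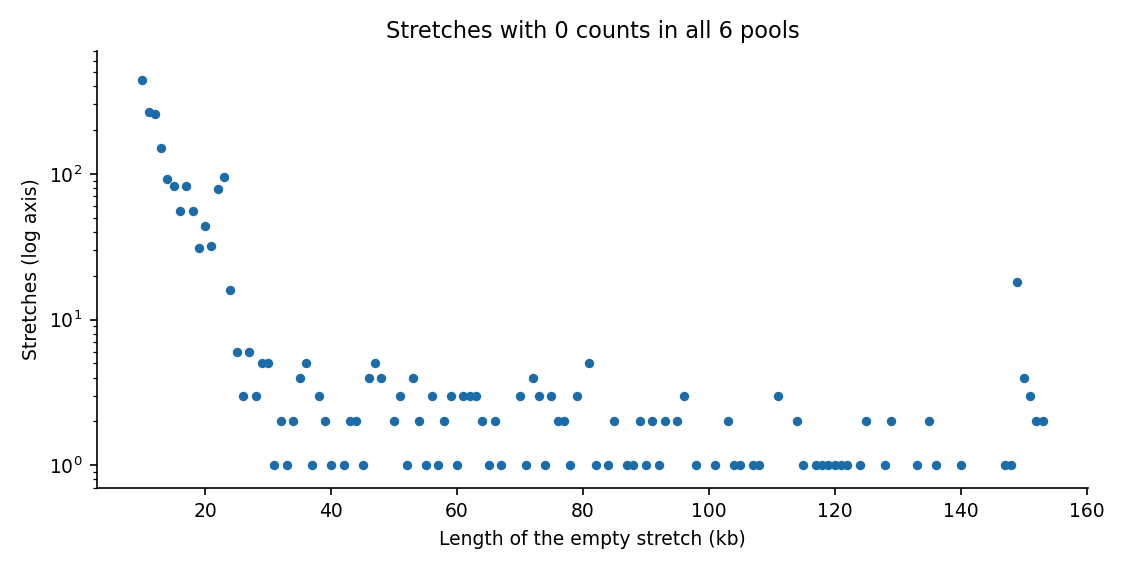
Number of stretches of adjacent windows with 0 counts in all 6 F1 control pools by length in kb, from 10 kb upwards, on a log count axis. Besides the decline from 441 stretches at 10 kb there is a peak at 22 to 23 kb and a group at 148 to 153 kb with 30 stretches.

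The longest stretches, 153 kb each, lay on chromosome 4 at 81550001 to 81703000 and on chromosome 16 at 27685001 to 27838000. Those of 152 kb lay on chromosome 4 at 68182001 to 68334000 and on chromosome 20 at 1352001 to 1504000. Those of 151 kb started on chromosome 5 at 94538001, on chromosome 14 at 69302001 and on chromosome 19 at 11934001. Among those of 150 kb, the rule for named stretches took 3, which started on chromosome 6 at 9993001, on chromosome 10 at 72581001 and on chromosome 12 at 1518001. The longest stretches were thus spread over different chromosomes and did not cluster in 1 region.

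By chromosome, empty stretches covered from 0.914% (chromosome 10) to 2.49% (chromosome 12). Their number per 10 Mb was lowest on chromosome 20 (4.45) and chromosome 19 (4.66), and highest on chromosome 12 (11.6), chromosome 1 (10.3) and chromosome 7 (10.1). Chromosome 12 thus combined the highest signal per window with the highest share of empty stretches. In all, 40.3% of the tested 1 Mb bins held at least 1 stretch. Of the 1999 stretches, 80 began in the first 2 Mb of a chromosome. Windows empty in all pools were 13.9% of the first megabase and 8.8% of the next, against 4.91% of all autosomal windows.

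Signal next to empty stretches was low at the typical window but not on average. The median window was 0.0707 CPM at 1 kb from an edge, where a window holds a count by definition, 0.152 CPM at 2 kb, 0.105 CPM at 5 kb and 0.155 CPM at 50 kb, all below the autosomal median of 0.233 CPM. The mean at 2 kb was 149% of the autosomal mean (SD 5.54 over pools), and at 5 kb it was 85.7% (SD 0.650). Empty windows remained frequent nearby, at 24.0% of windows 5 kb away and 14.5% at 50 kb, against 4.91% over all autosomal windows.

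The 6 pools gave nearly the same landscape, and more so the larger the unit. Over the 15 pairs of pools, Pearson's r of log2 signal was 0.884 on average at 1 kb (0.868 for pools 1 and 4, 0.906 for pools 2 and 5). It was 0.963 at 10 kb (0.954 to 0.971), 0.987 at 100 kb (0.982 to 0.990) and 0.994 at 1 Mb (0.991 for pools 3 and 6, 0.996 for pools 3 and 4). The best pair at 1 kb was the pair of deepest libraries. No pair of pools agreed within sampling noise, as the chi-square statistic divided by its degrees of freedom ran from 1.11 for pools 2 and 3 to 1.44 for pools 1 and 6, so no pair was merged as 1 library deposited in duplicate. The statistic does not tell separate pools from separate preparations of the same DNA, and the 6 were counted as separate samples from their labels.

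The common dispersion of edgeR was estimated on a subset drawn from the 895797 windows with at least 60 counts in total. The larger classes below were sampled in the same way. The coefficient of variation between pools beyond counting noise was 10.6%. It was 9.22% in windows with 60 to 120 counts, 9.42% with 120 to 240, 10.1% with 240 to 480, 14.1% with 480 to 960 and 18.3% in the 1634 windows with more. Windows of high signal thus varied more between pools in relative terms.

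The contrast between high and low bins also differed slightly between pools. The slope of a pool's log2 bin signal on the mean of the other 5 was 1.06 in pool 1, 1.03 in pool 2, 1.02 in pool 3, 0.940 in pool 4, 0.991 in pool 5 and 0.953 in pool 6. Pools 4 and 6, with the flattest slopes, also had the lowest values on chromosome 20 and, with 0.36 each, on chromosome 12. The part of library preparation in this was not tested.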

How the data were processed

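The authors' deposited table holds read counts per 1 kb window and library, per the file headers, which are whole numbers without normalization. RPKM values deposited by the authors beside them were used for an alternative scaling and to recover read numbers. The submitters' processing notes name FastQC, Trimmomatic, Bowtie2, SAMtools, edgeR and the Rnor_6.0 build. The sources used here give neither versions nor the treatment of duplicate and multiply placed reads. A count in several windows per read makes adjacent counts within a library dependent, and repeated sequence missing from the assembly can pile reads onto the copies present.

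Counts were divided by the autosomal library totals. Chromosomes and 1 Mb bins (at least 500 windows and 10 counts per pool, pseudocount 1) were tested with limma 3.58.1 in R 4.3.3 by a two-sided intercept test with Benjamini-Hochberg adjustment, called at adjusted p below 0.05, since edgeR's quasi-likelihood test cannot test an intercept. For each chromosome or bin, limma moderated the variance with those of the others, for bins along a trend on mean signal. Its p-values thus do not rest on the printed SD alone. For the highest bin, limma's adjusted p was 1.08e-07 with the trend and 5.56e-15 without it. Dispersion used edgeR 4.0.16, and DESeq2 1.42.0 gave alternative size factors. Single values used exact sign-flip permutation tests. The limma step for 1 Mb bins was tested on simulated bins, which were all drawn with the same spread between pools. Named bins are the 10 highest and 10 lowest called bins with all pools on 1 side, and named stretches the 10 longest. The set of pools and these rules were chosen with earlier results of these data known. Tests by CpG class and at gene starts were not run, because no Rnor_6.0 sequence or annotation was used here.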

Additional observations from a re-analysis of the deposited data

Results flagged for a closer look

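Dixon's test for a sample far from the others was run on 52 sets of 6 pool values, of which chance flags about 1 in 20, and 2 sets passed. On chromosome 19 the log2 relative signal of pool 6 was 0.25, while the other 5 pools lay between 0.27 and 0.28. In the 1 Mb bin on chromosome 7 starting at 8000001, pool 1 had -2.06, while the other 5 lay between -1.91 and -1.86. Either value was on the same side of the autosomal mean as the other pools.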

How the results depend on the processing

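The 20 named bins kept their direction and their call under all 300 alternative values. They were picked as the most extreme called bins, and alternative size factors leave their mean log2 value unchanged, so this count is not independent support. Of the tested bins, 95.1% to 96.2% were called under every setting of the bins. No paired analysis was possible because only 1 group of pools entered. Capping the highest windows turned chromosome 8 to 0.016, chromosome 9 to 0.0058, chromosome 14 to -0.050 and chromosome 16 to 0.0017. The median of windows turned chromosome 8 to 0.093, chromosome 9 to 0.020, chromosome 14 to -0.10 and chromosome 18 to 0.0034. Without the 10 highest bins, an alternative chosen after seeing the data, chromosome 8 had 0.011 and chromosome 14 had -0.061, and without empty windows chromosome 16 had 0.0022. The limma call of chromosome 13 was lost without any of pools 1 to 5 (values from -0.0079 to -0.0045 over all pools left out in turn), and without empty windows, where the value was -0.00068 with adjusted p = 0.807. That of chromosome 14 was lost without pool 3, 4 or 5 (0.0079 to 0.014) and that of chromosome 16 without pool 2, 3 or 5 (-0.0061 to -0.0049). The number of chromosomes called was 16 to 19, against 19 in the main test, and 17 by the exact test.

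For the first 2 Mb, ends of 1 Mb gave -0.015 and ends of 5 Mb gave -0.059, neither past the threshold, and leaving out empty windows gave 0.025. For the last 2 Mb, ends of 1 Mb gave -0.42, no longer past the threshold after adjustment over both ends, and ends of 5 Mb gave 0.0012. With any 1 pool left out the values were -0.081 to -0.075 for the first and -0.28 to -0.27 for the last 2 Mb, where 5 pools cannot pass the exact test. The correlation at 1 kb was 0.478 on ranks, 0.440 without empty windows and 0.517 within the same pool. At 10 kb it was 0.183 with log2(CPM + 0.02) and 0.142 without empty windows, at 100 kb 0.115 on ranks and 0.101 without empty windows, and at 1000 kb 0.0677 on ranks. Agreement over windows was 0.869 by Spearman's rho and 0.868 without empty windows, and 0.963 and 0.994 for sums over 10 kb and 1 Mb. Ranking windows in the pool itself gave the highest 10% of windows 40.2% of counts, against 38.8%, and thinning gave 12.1% of windows at 0, against 10.7%. Runs of at least 5 windows gave 8253 stretches over 81253 kb, and runs of at least 20 windows 482 over 22624 kb. At a median of 5 to 7 counts per window, depth limits single windows most and 1 Mb bins least. Tests by CpG class and at gene starts were not run.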

Other observations

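The 8 bins of 1 Mb with the largest SD over pools were looked at after their values were seen, and have no test. In each of them pools 3 and 4 both lay beyond the other 4 pools on the same side. On chromosome 2 the bin starting at 160000001 had 0.27, 0.31, -0.036, -0.17, 0.26 and 0.43 in pools 1 to 6, and the bin at 162000001 had 0.0044, 0.045, -0.34, -0.39, -0.043 and 0.17. On chromosome 15 at 21000001 the values were 0.37, 0.38, 0.054, 0.035, 0.37 and 0.51. The bins at 35000001 on chromosome 12 and 96000001 on chromosome 14 were likewise lower in pools 3 and 4. In the other three bins, pools 3 and 4 were higher. The bin at 76000001 on chromosome 1 had -1.46, -0.97, -0.72, -0.81, -1.15 and -1.41, and the bin at 91000001 on chromosome 5 had -0.11, -0.051, 0.35, 0.20, -0.015 and -0.23. The third was the bin at 46000001 on chromosome 14 described above. Pools 3 and 4 were the most alike pair at 1 Mb (r = 0.996) and the least alike of the 15 pairs over 1 kb windows by Spearman's rho (0.854). By Pearson's r over 1 kb windows the least alike pair was instead pools 1 and 4 (0.868). Pool 4 was the shallowest library, with 22644299 autosomal counts, and the part of depth in the 1 kb values was not tested. The chi-square per degree of freedom of pools 3 and 4 was 1.19, inside the range of 1.11 to 1.44 over pairs. Shared males or sires, and a shared preparation, are not given in the labels and were not tested.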
